A study of Mus musculus with 4 samples.

Results

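The mitochondrial genome of the mouse carries 37 annotated genes, and all 37 were among the 55573 gene IDs counted in quadriceps muscle. They were chosen by position alone, as every gene that the GENCODE M21 annotation of the GRCm38 build places on the mitochondrial chromosome, and they comprised 13 messenger RNA (mRNA), 22 transfer RNA (tRNA) and 2 ribosomal RNA (rRNA) genes. The libraries came from quadriceps of mice 7 weeks old kept on chow. The WT group held 2 libraries of C57BL/6J mice, and the knockout group held 2 libraries of B6.129S4-Vdrtm1Mbd/J mice, a strain with a targeted allele of Vdr, the gene of the vitamin D receptor, in every cell. The labels name no treatment and no sex. They do not say that the 2 libraries of a group came from separate animals, so p-values measure how far these libraries differ, which may be technical.

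Mitochondrial DNA is transcribed from both of its strands into long precursor RNAs that run through many genes. The heavy-strand precursor holds both rRNAs, most tRNAs and every mRNA except mt-Nd6, and the light-strand precursor holds mt-Nd6 and the remaining tRNAs. Enzymes cut the tRNAs out of the precursors, which frees the mRNAs and rRNAs that lie between them. The mRNAs encode subunits of complexes I, III, IV and V of oxidative phosphorylation, and the rRNAs and tRNAs serve the organelle's own ribosome. Skeletal muscle is rich in mitochondria, and slow oxidative fibres hold more of them than fast glycolytic fibres.

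Total counts ranged from 10789025 to 21336982 per library, and the counts of nuclear genes ranged from 5919736 to 11143139. Counts of mitochondrial genes were set against these nuclear counts. Dividing by them gives nuclear CPM, the usual CPM unit with the nuclear counts of a library as its total. A normalised count below is a nuclear CPM after the TMM scaling of edgeR, whose factors ran from 0.978 to 1.01. The 8 skeletal muscle genes summed to between 157027 and 177022 normalised counts, and the heart genes Myl7 and Nppa were at 0. None of the 8 was called different between the groups in edgeR, where 2 had an unadjusted p below 0.05, and DESeq2 called 1. Of the other lists, 9 of 12 fat cell genes and 3 of 5 tested red blood cell genes were called higher in the knockout libraries (edgeR quasi-likelihood test, Benjamini-Hochberg adjusted p below 0.05), where 2.03% of all genes tested were. Of 5 tested genes of library type and RNA quality 1 was called, the nuclear RNA Neat1, which was lower in the knockout (-0.65, adjusted p = 0.0212). The summed normalised count of the fat cell genes was 2002 and 2474 in the WT libraries and 8541 and 7708 in the knockout libraries, and its part in the results below was not tested. Xist, which female cells express from the inactive X chromosome, stood at 333 and 396 normalised counts in the WT libraries and at 0 and 0.472 in the knockout libraries. Ddx3y, a gene of the Y chromosome, stood at 8.64 and 0 against 141 and 116, so genotype and sex cannot be told apart in any difference given here. Vdr held 5 and 0 counts in the WT libraries and 5 and 1 in the knockout libraries, too few to check the labels.

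Chromosome 1 carries 7 annotated pseudogenes that lie in the order of the mitochondrial genome and face a stretch of 4662 bases of it (chrM:6381-11042 on GRCm38). The copies lie on the minus strand at chr1:24611535-24616197. Gm28661 matched mt-Co2, Gm10925 matched mt-Atp6, Gm28437 matched mt-Co3, Gm10222 matched mt-Nd4l and Gm28439 matched bases 1 to 876 of mt-Nd4, each without a mismatch over the aligned length. Gm29216 differed from mt-Co1 at 6 positions, all close to the start of the copy. Those substitutions, counted from base 1 of mt-Co1, were T1056A, C1057T, A1059G, A1060G, C1062A and A1066T. The opening 90 bases of Gm29216 (chr1:24616108-24616197, minus strand) and the facing bases 1054 to 1143 of mt-Co1 (chrM:6381-6470, plus strand) show how soon the sequences become identical. Capitals mark the bases that differ, and both sequences are from the GENCODE M21 transcripts.
mt-Co1: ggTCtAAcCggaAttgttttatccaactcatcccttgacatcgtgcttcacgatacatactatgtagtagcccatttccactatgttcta
Gm29216: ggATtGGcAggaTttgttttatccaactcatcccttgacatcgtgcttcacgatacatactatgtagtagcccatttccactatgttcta
Gm28438 differed from mt-Nd3 at a single base, T3C counted from base 1 of mt-Nd3, so that only a read over the opening of the gene separates the pair. The opening 90 bases of mt-Nd3 (chrM:9459-9548, plus strand) and of Gm28438 (chr1:24613030-24613119, minus strand) show it in capitals.
mt-Nd3: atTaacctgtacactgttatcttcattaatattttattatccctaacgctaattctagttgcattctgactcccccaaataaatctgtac
Gm28438: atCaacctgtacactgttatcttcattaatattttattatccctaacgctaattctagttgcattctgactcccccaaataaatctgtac

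The copies pair with 7 of the 13 mRNAs. A window of 50 bases was moved along each mitochondrial gene, and the share of windows found without mismatch in an annotated nuclear transcript on either strand was taken. That share was 100% for mt-Co2, 99.9% for mt-Co3, 99.5% for mt-Atp6, 98.8% for mt-Nd4l and 98.0% for mt-Nd3. It was 62.2% for mt-Nd4 and 51.1% for mt-Co1, and 8.19% for mt-Nd2, 7.61% for mt-Nd5 and 1.04% for mt-Rnr2, whose matches lay in other nuclear genes. Of the mt-Co1 windows 28.7% were found in Gm29216 and 27.5% in Gm13340, a pseudogene on chromosome 2. With windows of 100 bases it was 60.8% for mt-Nd4 and 30.8% for mt-Co1. No window of mt-Rnr1, mt-Nd1, mt-Nd6, mt-Cytb or mt-Atp8 was found. mt-Atp8 faces an unannotated gap of 233 bases between Gm28661 and Gm10925. The labels do not state how reads that fit 2 places were counted. The counts carry the name of STAR's per-gene output (ReadsPerGene), and its rule for such reads was not checked here. The levels below are therefore those of counts assigned to a gene, and the part of the copies in them was not tested.

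Close to 1 in 2 counts of every library came from the mitochondrial genome, and rRNA made up nearly all of them. Mitochondrial genes held 45.1% and 46.7% of all counts in the WT libraries and 47.8% and 43.3% in the knockout libraries. For each nuclear count there were 0.781 and 0.832 rRNA counts in the WT libraries and 0.868 and 0.727 in the knockout libraries. The WT values lay between the knockout values. The group means were 0.807 ± 0.0363 (SD, n = 2) in WT and 0.798 ± 0.0994 (SD, n = 2) in the knockout.

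The summed mRNAs followed the same order of libraries. There were 0.0416 and 0.0433 mRNA counts per nuclear count in the WT libraries and 0.0470 and 0.0369 in the knockout libraries, with means of 0.0425 ± 0.00124 and 0.0419 ± 0.00713 (SD, n = 2 each). The knockout libraries again lay on either side of both WT libraries, and the difference of the means was -0.02 on the log2 scale. It was -0.20 without knockout replicate 1 and 0.15 without knockout replicate 2. A change in the number of muscle fibres or mitochondria and a change in RNA per mitochondrion cannot be told apart in bulk tissue. The ratio of rRNA to mRNA counts varied less, at 18.8 and 19.2 in WT and 18.5 and 19.7 in the knockout. With 2 libraries against 2 an exact two-sided permutation test cannot give a p below 0.33, so these sums carry no test.

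**Figure D1:**
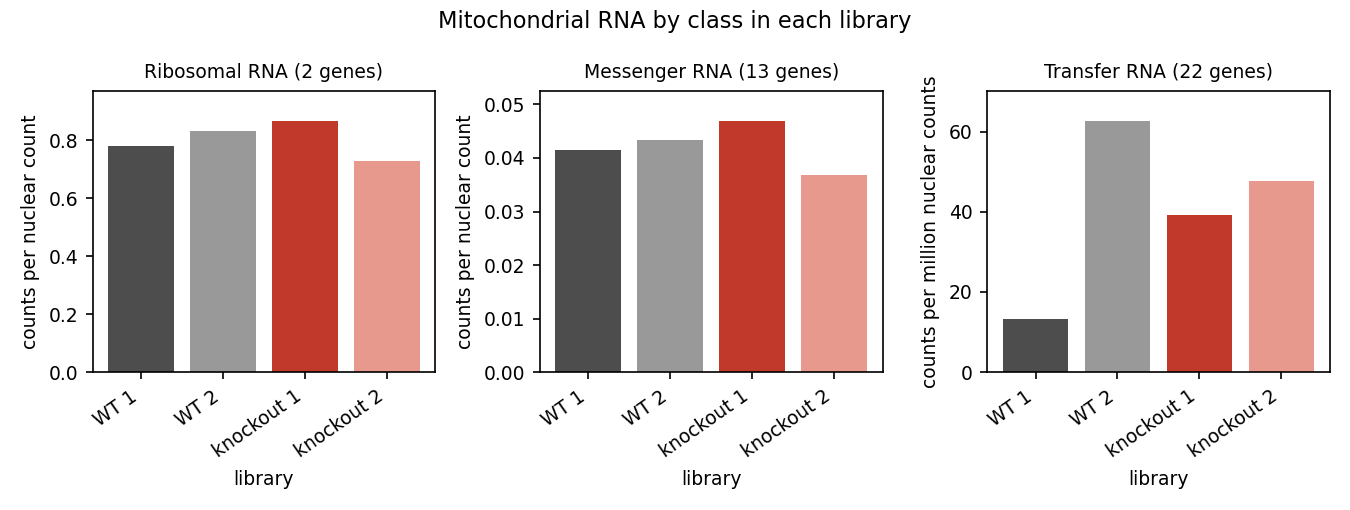
Summed counts of mitochondrial rRNA, mRNA and tRNA genes against the nuclear counts of the same library, with a bar for each of the 4 libraries. For rRNA and mRNA the knockout libraries lie above and below both WT libraries, and for tRNA WT replicate 1 is lowest at 13.2 nuclear CPM.

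The summed tRNAs were rare and spread more widely. They held 78 and 436 counts in the WT libraries and 436 and 303 in the knockout libraries, or 13.2 and 62.8 against 39.1 and 47.7 nuclear CPM. WT replicate 1 was lowest and WT replicate 2 highest, so the groups overlapped.

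The rRNA of the large ribosomal subunit, mt-Rnr2, was the most abundant member. Its normalised counts were 651012 and 695626 in WT and 713078 and 608211 in the knockout libraries. The small-subunit rRNA, mt-Rnr1, gave 147907 and 129722 in WT and 142816 and 118668 in the knockout. For both genes the groups overlapped, and neither was called, where 2.52% of all 13108 genes tested were. The log2 fold change of knockout over WT was -0.03 ± 0.143 (SE) for mt-Rnr2, with an edgeR adjusted p of 0.963, and -0.09 ± 0.151 for mt-Rnr1, with an adjusted p of 0.876. Neither had an unadjusted p below 0.05 in edgeR or DESeq2. Each mt-Rnr1 count was matched by 4.40 and 5.36 mt-Rnr2 counts in the WT libraries and by 4.99 and 5.13 in the knockout. Both rRNAs are cut from one precursor and lie side by side, with the valine tRNA mt-Tv between them.

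Levels of the mRNAs differed from gene to gene by several orders of magnitude. Per kilobase of gene, the mean over the 4 libraries was 17238 nuclear CPM for mt-Co1, the catalytic core of complex IV. It was 5611 for mt-Nd1 and 4665 for mt-Cytb, which encode a membrane subunit of complex I and cytochrome b of complex III. The complex I subunits mt-Nd2, mt-Nd4 and mt-Nd5 followed at 1541, 1184 and 700.3, and mt-Nd6 stood at 235. The rRNAs were far above all of them on the same scale, at 421840 for mt-Rnr2 and 141082 for mt-Rnr1.

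The lowest levels per kilobase were those of the genes that lie wholly within the stretch copied on chromosome 1. They were 168 for mt-Co3, 88.2 for mt-Co2, 28.3 for mt-Nd3, 28.2 for mt-Atp6, 3.04 for mt-Atp8 and 0.121 for mt-Nd4l. These 6 genes took 26.3% of the summed mRNA length and held 0.515% of the mRNA counts. The 5 mRNAs outside the stretch took 48.1% of the length, held 32.1% of the counts and ranged from 235 to 5611 per kilobase, so every one of them stood above all 6 inside. mt-Co2 and mt-Co3 encode the other mitochondrial subunits of complex IV, the enzyme whose catalytic subunit mt-Co1 held the most mRNA counts. mt-Nd4l held a single count in all libraries together, in WT replicate 2, while mt-Nd4, whose start overlaps its end, was among the genes tested.

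**Figure D2:**
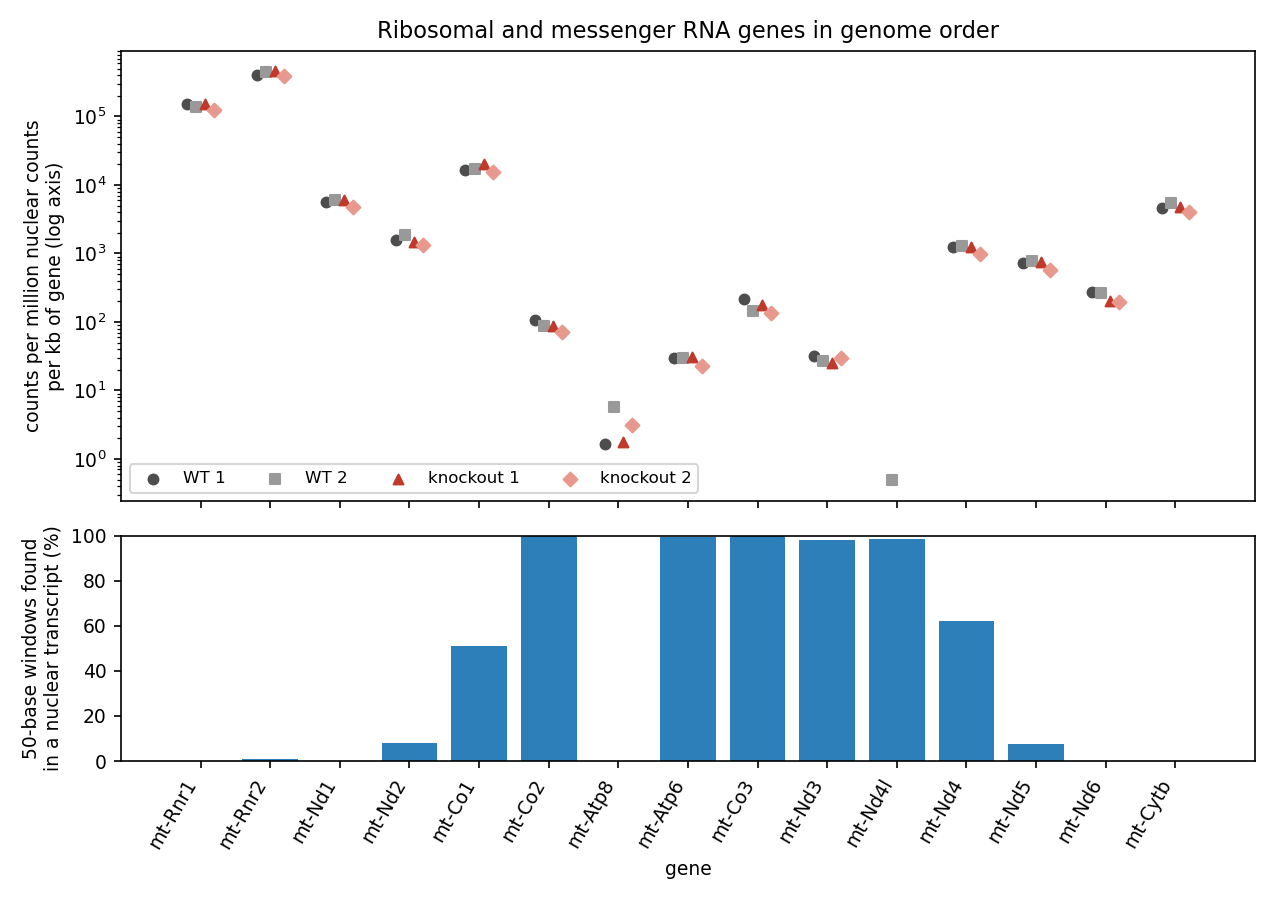
Level of each mitochondrial mRNA and rRNA in each of the 4 libraries (nuclear CPM per kilobase, log axis, values of 0 left out). Below is the share of its 50-base windows found in nuclear transcripts (percent). Averaged over the 4 libraries, genes with shares of 98.0% or more sit at 168 or lower, and mt-Atp8, with a share of 0, sits at 3.04.

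The copies themselves held counts. Gm28661 had 393 and 436 counts in the WT libraries and 749 and 390 in the knockout libraries, next to 435, 412, 662 and 312 counts of mt-Co2 itself. Gm28438 had 56, 70, 119 and 78 counts in the same order of libraries, next to 65, 64, 98 and 66 of mt-Nd3. For these pairs the pseudogene and the mitochondrial gene were thus of like size in every library. Gm10925 exceeded mt-Atp6, with 249, 246, 484 and 191 counts against 121, 140, 231 and 98. Gm28437 fell short of mt-Co3, with 395, 464, 814 and 388 counts against 1009, 784, 1535 and 666. Gm29216, the copy of the end of mt-Co1, had 181, 280, 441 and 245 counts, and Gm28439, the copy of most of mt-Nd4, had 24, 23, 51 and 23. Gm10222, the copy of mt-Nd4l, had 1, 1, 2 and 3, and was not tested. The 6 copies tested had log2 fold changes from -0.08 to 0.20, and none was called. None had an unadjusted p below 0.05 in edgeR, and DESeq2 gave 0 calls and 0 such p-values for them too.

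The question of the study's design for the mRNAs is whether loss of Vdr went with another level of the mitochondrially encoded subunits. Of the 13 mRNAs, 11 passed the filter on low counts, and mt-Atp8 and mt-Nd4l did not. None of the 11 was called at an adjusted p below 0.05, against 2.52% of all 13108 genes tested (330 genes); 0.488% of all genes were called lower. DESeq2 called 0 as well, and in each tool 2 of them had an unadjusted p below 0.05. In edgeR these were mt-Nd2 and mt-Nd6, where 14% of all genes tested had such a p. The log2 fold change was below 0 for 10 of the 11, against 46.6% of all genes tested, and its median was -0.21, against 0.02 over all genes. Without WT replicate 1 it was -0.14 and without knockout replicate 2 it was -0.08, with 8 of the 11 below 0 in each case, and without knockout replicate 1 it was -0.38. The knockout libraries were both below both WT libraries for 5 of the 11, against 19.5% of all genes tested, and both above for none. A background of abundant genes was 1191 nuclear protein-coding genes with a mean of at least 100 normalised counts. Of these, 641 had a log2 fold change below 0, and 342 had both knockout libraries below both WT libraries. An unadjusted edgeR p below 0.05 was found for 22.3% of them. mt-Co2, mt-Atp6 and mt-Nd3 stood below that abundance. The mRNAs share precursors and libraries, so these counts do not stand for independent observations.

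**Figure D3:**
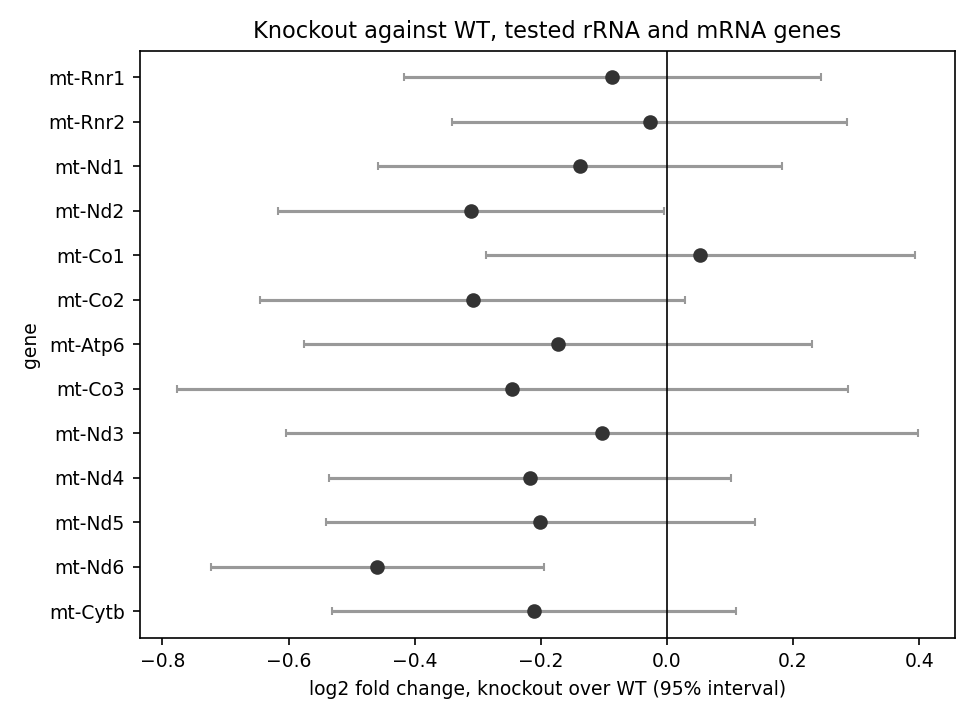
Log2 fold change of knockout over WT for the 2 rRNA and 11 mRNA genes tested. Bars give the 95% confidence interval of the edgeR fit. All intervals except those of mt-Nd2 and mt-Nd6 span 0.

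mt-Nd6 (ENSMUSG00000064368), the complex I subunit encoded on the light-strand precursor, had the smallest p of the mRNAs. Its normalised counts were 146 and 137 in WT and 104 and 101 in the knockout libraries. The groups did not overlap, and the means were 141 ± 6.57 and 103 ± 2.25 (SD, n = 2 each). The log2 fold change was -0.46 ± 0.121 (SE; 95% confidence interval -0.72 to -0.20), with an unadjusted p of 0.00272 and an adjusted p of 0.0819 in edgeR, above the threshold. The adjusted p ran from 0.0376 to 0.625 over the alternatives, and it was below the threshold where no filter on low counts was used.

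mt-Nd5 lies opposite mt-Nd6, shares a few bases at its 3′ end with it and belongs to the heavy-strand precursor. Its normalised counts were 1332 and 1399 in WT and 1347 and 1030 in the knockout, so the groups overlapped (log2 fold change -0.20 ± 0.155 (SE), edgeR adjusted p = 0.640). For each 1000 mt-Nd5 counts there were 110 and 97.7 mt-Nd6 counts in the WT libraries and 77.5 and 98.3 in the knockout, and this ratio overlapped too. The start of each message shows the strand bias of mitochondrial DNA for which the strands are named. mt-Nd6 (chrM:13981-14070, minus strand) has 17 G in its opening 90 bases, and mt-Nd5 (chrM:11742-11831, plus strand) has 0 there. Over the whole genes G made up 28.1% of mt-Nd6 and 10.0% of mt-Nd5. Capitals mark G, and the sequences are those of the GENCODE M21 transcripts on GRCm38.
mt-Nd6: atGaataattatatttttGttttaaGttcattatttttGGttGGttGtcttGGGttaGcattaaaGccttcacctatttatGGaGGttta
mt-Nd5: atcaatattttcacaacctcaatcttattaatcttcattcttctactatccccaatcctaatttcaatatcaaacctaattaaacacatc
Across the annotation, 119 of 457 genes whose exons are fully covered by an opposite-strand gene held a count, against 1 of 712 covered by genes of the same strand. mt-Nd5 and mt-Nd6 share only a few bases and were not among these genes. The labels state no strand setting, and the annotation used for counting is not given. The check therefore cannot decide whether reads of this pair were assigned with regard to strand.

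Among the other complex I subunits, mt-Nd2 gave 1654 and 1887 normalised counts in the WT libraries and 1491 and 1364 in the knockout libraries. The groups did not overlap, and the log2 fold change was -0.31 ± 0.140 (SE), with an unadjusted p of 0.0474 and an adjusted p of 0.348 in edgeR. mt-Nd4 gave 1756 and 1752 in WT and 1665 and 1353 in the knockout, again without overlap (-0.22, adjusted p = 0.572). These mRNAs encode membrane subunits that form the proton-pumping arm of complex I. mt-Nd1 gave 5598 and 5653 in WT and 5631 and 4593 in the knockout (-0.14, adjusted p = 0.762). mt-Nd3 gave 11.2 and 9.13 in WT and 8.67 and 10.4 in the knockout (-0.10, adjusted p = 0.906). For mt-Nd1 and mt-Nd3 the groups overlapped, and for mt-Nd1 knockout replicate 2 was the only library apart from the rest.

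mt-Cytb, the only mitochondrial subunit of complex III, gave 5359 and 6089 normalised counts in the WT libraries and 5331 and 4560 in the knockout libraries. The groups were separated by less than the spread within either (-0.21 ± 0.146 (SE), adjusted p = 0.587). In complex IV, mt-Co1 gave 26403 and 25848 in WT and 30530 and 23689 in the knockout, with the knockout libraries on either side of WT (0.05 ± 0.155 (SE), adjusted p = 0.928). It was the only mRNA with a log2 fold change above 0. mt-Co2 gave 75.2 and 58.8 in WT and 58.6 and 49.1 in the knockout, where the nearest WT and knockout libraries were almost level (-0.31, adjusted p = 0.416). mt-Co3 gave 174 and 112 in WT and 136 and 105 in the knockout (-0.25, adjusted p = 0.723), and WT replicate 1 stood above the other libraries. In complex V, mt-Atp6 gave 20.9 and 19.98 in WT and 20.4 and 15.4 in the knockout (-0.17, adjusted p = 0.764), with overlap. mt-Atp8 held 2, 8, 4 and 4 counts in the order WT, WT, knockout, knockout and was not tested.

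In both knockout libraries mt-Co1 held a higher share of the mitochondrial mRNA counts than in both WT libraries. The complex I mRNAs held a lower one. mt-Co1 made up 62.1% and 60.2% of the mitochondrial mRNA counts in the WT libraries and 65.9% and 64.3% in the knockout, with means of 61.1% ± 1.36 and 65.1% ± 1.17 (SD, n = 2 each). The 7 complex I mRNAs together made up 24.7% and 25.2% in WT and 22.1% and 22.9% in the knockout, with means of 24.95% ± 0.382 and 22.5% ± 0.566. The share of mt-Cytb was 12.6% and 14.2% in WT and 11.5% and 12.4% in the knockout, also without overlap. These shares sum to a fixed total, so a higher mt-Co1 share lowers the others. They are shares of counts assigned to each gene. The 6 mRNAs wholly within the stretch copied on chromosome 1 held 0.515% of these counts on 26.3% of the mRNA length. The part of the copies in the shares was not tested. Groups without overlap were found for 44.6% of all genes tested. In an edgeR fit scaled to the mitochondrial mRNA counts none of the 11 mRNAs was called: the log2 fold change of mt-Co1 was 0.09 ± 0.221 (SE), with an adjusted p of 0.9998, and the lowest adjusted p was 0.625, for mt-Nd6.

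**Figure D4:**
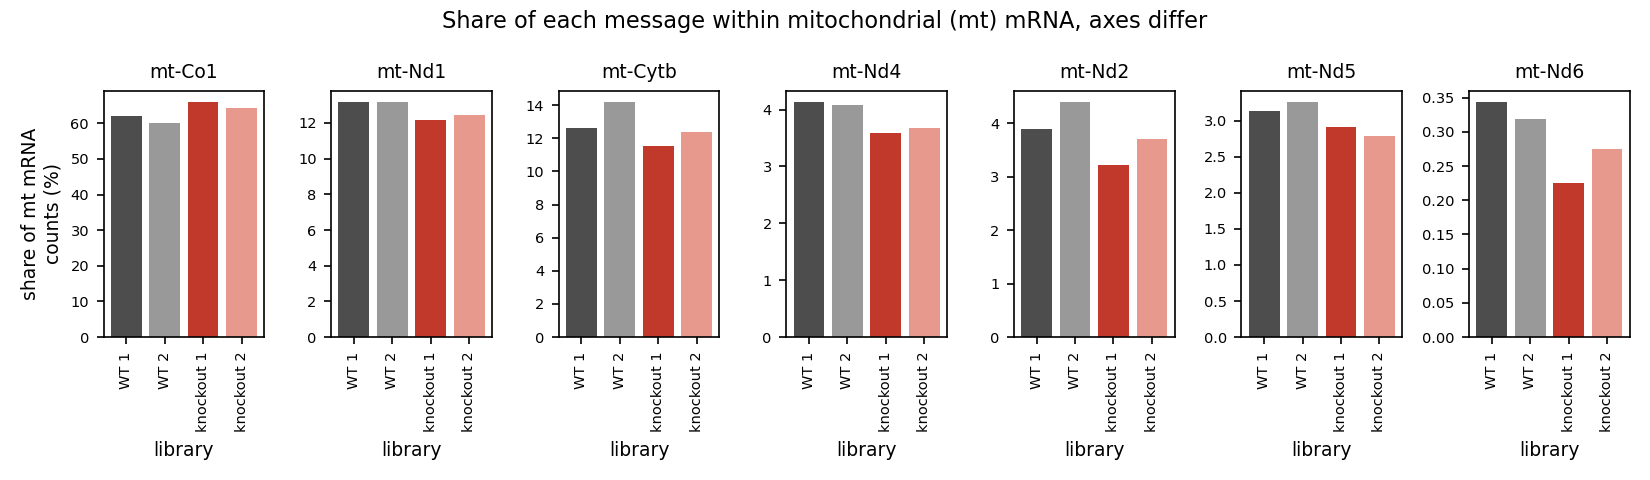
Share of the mitochondrial mRNA counts (percent) in the 4 libraries. The mt-Co1 share is higher in both knockout libraries (65.9% and 64.3%) than in both WT libraries (62.1% and 60.2%). For mt-Nd1, mt-Cytb, mt-Nd4, mt-Nd2, mt-Nd5 and mt-Nd6 both knockout libraries lie below both WT libraries.

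The annotated tRNA genes are 59 to 75 bases long, and few reads were assigned to them. Of the 22 tRNA genes, 11 had no count in any library and 11 had at least 1. A count was seen for 6 of the 8 light-strand tRNAs and for 5 of the 14 heavy-strand tRNAs. The 4 tRNAs with a mean of at least 20 counts, mt-Ti, mt-Tq, mt-Tw and mt-Tp, held 88.4% of the 1253 tRNA counts. Counts of 0 allow up to 3 counts, which is 0.507 and 0.432 nuclear CPM in the WT libraries and 0.269 and 0.472 in the knockout libraries, for counting error only. The sequences of the tRNAs described below are shown with that of the leucine tRNA mt-Tl1 (chrM:2676-2750), which held no count. Capitals mark bases that a tRNA shares with a neighbouring gene on either strand. The tRNAs of isoleucine, mt-Ti (chrM:3706-3774), tryptophan, mt-Tw (chrM:4950-5016), and threonine, mt-Tt (chrM:15289-15355), are read from the plus strand. Those of glutamine, mt-Tq (chrM:3772-3842), and proline, mt-Tp (chrM:15356-15422), are read from the minus strand.
mt-Ti: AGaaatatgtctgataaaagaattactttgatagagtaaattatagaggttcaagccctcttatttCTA
mt-Tq: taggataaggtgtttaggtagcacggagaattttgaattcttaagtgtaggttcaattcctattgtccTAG
mt-Tw: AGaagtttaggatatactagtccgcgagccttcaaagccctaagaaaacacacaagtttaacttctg
mt-Tp: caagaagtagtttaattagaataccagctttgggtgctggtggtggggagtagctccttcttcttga
mt-Tt: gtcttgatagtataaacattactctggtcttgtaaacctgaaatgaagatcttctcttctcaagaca
mt-Tl1: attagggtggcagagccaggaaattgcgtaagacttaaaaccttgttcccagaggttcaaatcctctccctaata
The neighbours of these tRNAs differed. mt-Ti and mt-Tw each share their opening AG with the end of the mRNA before them and are followed by 70 and 311 bases, respectively, without a gene on their strand. mt-Tt is the last heavy-strand gene before the control region. mt-Tl1 and mt-Tg, both without a count, touch a gene of the same strand at each end. So does mt-Tv, which held 3 counts, all in WT replicate 2. mt-Td follows 69 bases without a gene on its strand and held no count. mt-Tn and mt-Tc lie 32 bases apart on their strand and held no count either. The part of the neighbours in these counts was not tested.

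Of the tRNAs, 5 passed the filter on low counts. mt-Tt (ENSMUSG00000064371) was the only mitochondrial gene called, and it is named for that reason after its values were seen. It held 1 and 1 counts in the WT libraries and 19 and 24 in the knockout libraries. Both knockout libraries lay above both WT libraries, as for 25.1% of all genes tested. Summed, 2 against 43 counts gave a ratio of 15.6 at equal nuclear counts, with an exact binomial (Clopper-Pearson) 95% interval of 4.06 to 133 for counting error only. The edgeR log2 fold change was 3.91 ± 0.828 (SE), with an adjusted p of 0.0302, where 2.03% of all genes tested were called higher. It passed the filter only through the knockout libraries. The call was lost without WT replicate 1 (adjusted p = 0.0899), without WT replicate 2 (0.143) or without knockout replicate 2 (0.210), where the log2 fold change was 4.06, 3.78 and 3.30, and kept without knockout replicate 1 (0.0363). Over all edgeR alternatives the adjusted p ran from 0.000265 to 0.210, and DESeq2 gave none.

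mt-Tw held 23 and 69 counts in the WT libraries and 139 and 94 in the knockout, or 3.97 and 9.85 against 12.3 and 14.8 normalised counts. Both knockout libraries were higher, but WT replicate 1 was far below WT replicate 2. The log2 fold change was 0.93 ± 0.346 (SE), with an unadjusted p of 0.0252 and an adjusted p of 0.256 in edgeR, and it was called without WT replicate 2 (1.73, adjusted p = 0.00605), without a filter on low counts (0.00957) and on the scale of mitochondrial mRNA counts (0.0385). The highest adjusted p over the alternatives was 0.688.

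For mt-Ti, mt-Tq and mt-Tp the difference within WT exceeded that between the groups. mt-Ti gave 3.28 and 29.7 normalised counts in the WT libraries and 12.7 and 13.7 in the knockout. mt-Tq gave 1.90 and 9.56 in WT and 5.40 and 4.88 in the knockout, and mt-Tp gave 2.59 and 6.57 against 4.25 and 7.40. WT replicate 1 was the lowest library for all 3. Their log2 fold changes were -0.36, -0.19 and 0.27, with edgeR adjusted p-values of 0.944, 0.944 and 0.858. Leaving out WT replicate 1 gave a call for mt-Ti in the lower direction (-1.17, adjusted p = 0.00413), and leaving out WT replicate 2 gave a call in the higher direction (1.97, adjusted p = 0.0024).

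The mRNAs differed in 1 direction between the knockout libraries. Knockout replicate 1 was above knockout replicate 2 for 10 of the 11 mRNAs and for both rRNAs, against 51.8% of all genes tested. The ratio of these 2 libraries had a median of 1.23 over the mRNAs, with a range of 0.835 to 1.33. Over 2005 nuclear genes with a mean of at least 500 counts its median was 1.01, with quartiles of 0.923 and 1.11. Between the WT libraries the ratio of replicate 2 to replicate 1 had a median of 0.979 over the mRNAs and 0.962 over the nuclear genes.

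Genes of slow and oxidative fibres differed between the knockout libraries in the same direction. All 9 were higher in knockout replicate 1 than in knockout replicate 2; the split of the fibre genes into slow and fast was made after values were seen. Myh7, the myosin heavy chain of slow fibres, gave 22.3 and 25.3 normalised counts in the WT libraries and 52.8 and 13.4 in the knockout. Myh2, that of fast oxidative fibres, gave 471 and 533 in WT and 689 and 316 in the knockout, and myoglobin (Mb) gave 1058 and 945 against 1202 and 757. Knockout replicate 1 was highest and knockout replicate 2 lowest for 6 of the 9 slow and oxidative genes, against 6.94% of all genes tested. The summed mitochondrial mRNAs, most of them mt-Co1, showed this order too, but taken gene by gene 1 of the 11 mRNAs did. Of the 7 fast fibre genes, 4 were higher in knockout replicate 1 than in knockout replicate 2. Myh4, the heavy chain of fast glycolytic fibres, was almost level, at 43037, 38092, 40956 and 40625. None of the 16 fibre genes was called between the groups, and none had an unadjusted p below 0.05 in edgeR or DESeq2. The summed neutrophil genes also stood apart in knockout replicate 1, at 56.1 normalised counts against 5.35 in knockout replicate 2 and 1.21 and 2.14 in WT. The part of fibre make-up and of other cells in the mitochondrial levels was not tested.

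**Figure D5:**
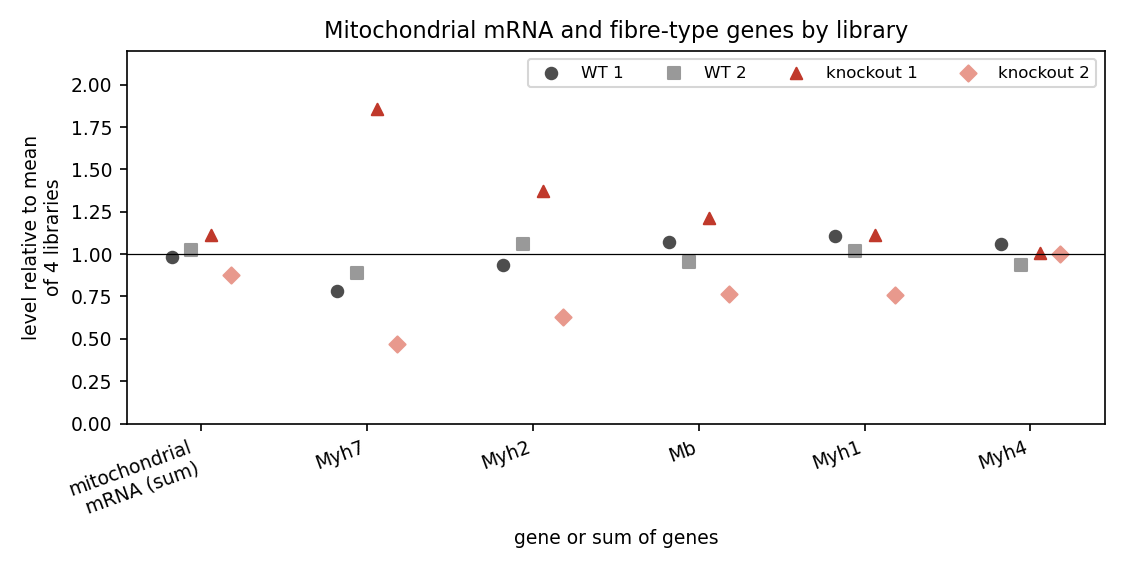
Levels of the summed mitochondrial mRNAs, of Myh7, Myh2 and Mb, and of the fast fibre genes Myh1 and Myh4 in the 4 libraries. Each level is divided by its mean over the 4 libraries. The sum is taken per nuclear count and the genes as normalised counts. For Myh7, Myh2, Mb and the sum of the mitochondrial mRNAs knockout replicate 1 is the highest and knockout replicate 2 the lowest library, an order shown by 1 of the 11 mRNAs taken singly.

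Nuclear genes for the maintenance, transcription, processing and translation of mitochondrial nucleic acids, and regulators of mitochondrial biogenesis, were examined in 6 lists. Of these lists 116 genes were tested. None was called in edgeR, and 9 had an unadjusted p below 0.05, of which 3 were lower in the knockout. These 9 are 7.76% of the genes, against 14% of all genes tested with such a p, and 2.52% of all genes were called. DESeq2 also called none, with 5 such p-values. The median log2 fold change over the 116 genes was 0.08, with 75 genes above 0 (64.7%, against 53.4% of all genes tested) and 41 below. Of the 10 tested genes of mitochondrial transcription none had an unadjusted p below 0.05. Their median was 0.00094.

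Polrmt, the mitochondrial RNA polymerase, gave 26.4 and 25.3 normalised counts in the WT libraries and 23.8 and 19.8 in the knockout libraries. The knockout libraries were both lower, but the difference was not called (-0.23, edgeR adjusted p = 0.587). Tfam, which packages mitochondrial DNA and starts transcription, gave 33.2 and 32.0 against 36.6 and 32.3 (0.09, adjusted p = 0.870). Lrpprc and Slirp form a complex that stabilises mitochondrial mRNAs. Lrpprc gave 64.1 and 63.8 in WT and 66.9 and 62.6 in the knockout (0.02, adjusted p = 0.970), and Slirp gave 71.2 and 75.5 against 79.0 and 87.2 (0.18, adjusted p = 0.593). Of 22 genes of RNA processing, 2 had an unadjusted p below 0.05, and of 26 genes of rRNA and tRNA modification, 2 had.

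The DNA polymerase Polg gave 39.6 and 40.0 in WT and 46.6 and 43.0 in the knockout (0.17, adjusted p = 0.643), and the helicase Twnk gave 19.9 and 19.1 against 20.4 and 16.4 (-0.07, adjusted p = 0.918). Ppargc1a, a coactivator that promotes mitochondrial biogenesis, gave 35.3 and 30.7 against 35.4 and 27.7 (-0.05, adjusted p = 0.935), and the groups overlapped. Among the 17 regulators of biogenesis 4 had an unadjusted p below 0.05 (23.5%, against 14% of all genes tested), 2 of them lower in the knockout. Of the 22 aminoacyl-tRNA synthetases none had. Lars2, which charges the mitochondrial leucine tRNAs, was singled out after its values were seen because of 1 library. It gave 85.7 normalised counts in WT replicate 1, 267 in WT replicate 2, and 40.6 and 65.9 in the knockout. Its log2 fold change of -1.74 had an SE of 0.851 and an adjusted p of 0.572.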

How the data were processed

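RNA of mouse quadriceps was sequenced in 4 libraries. The library kit is named in 2 ways in the labels (TruSeq RNA v2 and TruSeq total RNA). The authors deposited whole-number counts of reads per gene for each library. The submitters' processing notes list STAR, Trimmomatic and DESeq2 as tools and GRCm38 as the build. The labels and notes state no versions, annotation release, strand setting or handling of reads with several matches. The counts carry the name of STAR's per-gene output (ReadsPerGene). Of the 55573 gene IDs 55480 (99.8%) matched GENCODE M21; the other 93 were taken as nuclear. Nuclear counts of 5919736 to 11143139 set the precision.

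Library size was the nuclear sum times the TMM factor over nuclear genes. Genes were filtered with filterByExpr (minimum count 10, total 15), which left 13108. The test was the robust quasi-likelihood F test of edgeR 4.0.16 in R 4.3.3 over all of them, with Benjamini-Hochberg adjustment and a threshold of 0.05. The test was tested on simulated data. DESeq2 1.42.0, other scalings, no filter, a replicate block and leaving out each library were alternatives. Libraries of 1 group differed by more than sampling noise (chi-square per degree of freedom 7.21 in WT and 9.20 in the knockout). Every mRNA and rRNA gene and each tRNA gene with a mean of at least 20 counts was named. So were called genes of the nuclear lists and 7 further genes of those lists. Members and lists were chosen with earlier results of these data known. Windows of 50 bases were matched exactly, without mismatch, to GENCODE M21 transcripts.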

Additional observations from a re-analysis of the deposited data

How the results depend on the processing

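In edgeR 330 genes of all genes tested were called, and 741 without a filter on low counts, where 26657 genes were tested. Of the mitochondrial genes 1 was called, against 3 without the filter (2 higher, 1 lower) and 0 in DESeq2, where 4 had an unadjusted p below 0.05. Leaving out 1 library gave 0 to 2 mitochondrial calls; the 0 came without knockout replicate 2 in edgeR, with 2 at an unadjusted p below 0.05, and the single call without WT replicate 1 was mt-Ti, lower. Leaving out 1 library also moved the log2 ratio of mRNA per nuclear count from -0.02 to between -0.20 and 0.15, and that of tRNA from 0.19 to between -0.53 and 1.72. Without 1 library, log2 fold changes ran from -0.41 to 0.00098 for mt-Atp6, -0.14 to 0.22 for mt-Co1, -0.55 to 0.12 for mt-Co3, -0.29 to 0.0015 for mt-Nd1, -0.27 to 0.055 for mt-Nd3, -0.23 to 0.041 for mt-Rnr1, -0.15 to 0.083 for mt-Rnr2, -1.17 to 1.97 for mt-Ti, -0.21 to 1.10 for mt-Tp and -0.88 to 1.41 for mt-Tq. On the scale of mitochondrial mRNA counts mt-Rnr2 stood at 0.018, and with the counts of the copies added, an alternative chosen after seeing the data, mt-Nd3 stood at 0.058. Leaving Rn7sk out of the nuclear sum, also chosen after seeing the data, changed no direction or call of a mitochondrial gene. Of the alternatives to the log2 fold changes of tested mitochondrial genes, 225 kept direction and side of the threshold, 18 changed sign, 6 gained a call (1 of these with a changed sign) and 3 lost it. The cause of the changes was not tested.

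Replicate numbers only name the libraries: the differences between numbers 1 and 2 in WT and in the knockout correlated at 0.0383 across genes. With the replicate number as a block 251 genes and 1 mitochondrial gene were called, mt-Ti stood at 0.071 and mt-Tq at 0.059, both opposite in sign to the fit without it. The low counts of the tRNAs limit the precision of their values.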
